A study of Mus musculus with 8 samples.

Results

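The noncoding RNAs described here are genes whose array probes carry a RefSeq noncoding transcript identifier, that is, an annotated transcript with no coding sequence. The arrays held 1393 such probes, and 1 feature was kept per gene symbol after 19 genes were set aside: Meg3, Rian, Peg13, H19, Kcnq1ot1, Airn, Neat1, Malat1, Gas5, 9 Snhg genes and Speer6-ps1. This left 1060 genes on 1350 probes, out of 123278 features on the array. The study measured circular RNAs, long noncoding RNAs and mRNAs in mouse spinal cord after injury, on 1-colour arrays with 1 array per sample.

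The contusion group held 4 samples and the control group held 4 samples, each from 1 female mouse aged 8 weeks. Contusion is a blunt bruise of the cord, and the sampled tissue came from cord segments T9 to T10 at the injury site. The contusion titles and the study design give 3 days after injury, but by their sample descriptions contusion replicates 1 to 4 were taken at 3, 4, 5 and 6 days, which leaves the time uncertain for replicates 2, 3 and 4. The study design calls the controls sham-operated, while their sample descriptions call them normal cord. No genotype or strain was stated.

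RefSeq noncoding genes are a mixed collection. Antisense transcripts run opposite a coding gene, host genes carry microRNAs or other small RNAs inside their transcript, and pseudogenes are copies of coding genes that have lost the reading frame. Long noncoding RNAs can act on neighbouring genes, bind proteins or microRNAs, or serve as precursors, and for most clone-named members no function is known. Many are made in only a few cell types.

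The probes of a selection of the members described below are shown first, because each level below is the brightness of 1 such 60-base probe. The selection is not a ranking by size of difference, and leaves out C130080G10Rik, which had the widest fall. Each line gives the gene with its span on GRCm38 (RefSeq table of GRCm38.p6) and then the probe, 5′ to 3′, and capitals mark AATAAA or ATTAAA, the hexamers found near the 3′ ends of polyadenylated transcripts. No exon annotation was used, so the place of a probe within its gene is not given.
Lockd, chr6:134929092-134951718: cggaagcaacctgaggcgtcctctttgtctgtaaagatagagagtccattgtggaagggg
AI662270, chr11:83223576-83226584: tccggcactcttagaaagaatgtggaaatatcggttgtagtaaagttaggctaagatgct
Mirt2, chr15:76266787-76269839: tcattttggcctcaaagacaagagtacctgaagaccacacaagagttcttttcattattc
Morrbid, chr2:128298663-128429351: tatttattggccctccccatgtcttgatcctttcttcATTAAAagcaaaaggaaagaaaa
Trp53cor1, chr17:29057474-29079126: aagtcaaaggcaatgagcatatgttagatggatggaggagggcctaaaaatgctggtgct
Tyms-ps, chr10:87966671-87968017: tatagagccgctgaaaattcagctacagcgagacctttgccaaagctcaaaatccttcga
Gad1os, chr2:70489940-70563357: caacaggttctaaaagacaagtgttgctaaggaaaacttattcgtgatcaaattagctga
Lhx1os, chr11:84525660-84535831: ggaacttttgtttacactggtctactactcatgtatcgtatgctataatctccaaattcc
Mir124-2hg, chr3:17789921-17800071: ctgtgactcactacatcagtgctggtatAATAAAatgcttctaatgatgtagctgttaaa
Tunar, chr12:105336594-105383932: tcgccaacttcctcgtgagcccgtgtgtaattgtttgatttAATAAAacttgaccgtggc
BC006965, chr11:112663927-112711356: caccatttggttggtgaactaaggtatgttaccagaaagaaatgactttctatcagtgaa

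One of these hexamers stood in the probe of 16.9% of the 703 tested members, against 24.8% of the mRNA probes tested and 10.3% of the probes of other long noncoding RNAs. It was in the probes of 17.4% of the members higher in contusion, 19.2% of those lower and 15.8% of those not called. The median GC content of the probes was 40.0% for the tested members and 40.0% for the mRNAs. The probe of 7 tested members was also used for a feature of another class on the array, and in 0 cases was that feature an mRNA.

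Several members contain microRNA genes, and their mature sequences show which of them share a seed. A microRNA hairpin of the RefSeq table lay within the span of 22 tested members or just beside it, and the array did not measure the mature microRNAs. Each line gives the microRNA, its place on GRCm38 and its mature sequence, 5′ to 3′, with the seed (bases 2 to 8) in capitals.
miR-322-5p in C430049B03Rik, chrX:53054306-53054327: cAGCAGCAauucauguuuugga
miR-503-5p in C430049B03Rik, chrX:53054027-53054049: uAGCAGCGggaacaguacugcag
miR-16-5p in Dleu2, chr14:61631936-61631957: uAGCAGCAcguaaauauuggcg
miR-199a-5p in Dnm3os, chr1:162217844-162217866: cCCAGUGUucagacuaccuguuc
miR-214-3p in Dnm3os, chr1:162223438-162223459: aCAGCAGGcacagacaggcagu
miR-22-3p in Mir22hg, chr11:75463772-75463793: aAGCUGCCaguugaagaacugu
miR-200b-3p in Gm13648, chr4:156055685-156055706: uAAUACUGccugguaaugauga
miR-429-3p in Gm13648, chr4:156053916-156053937: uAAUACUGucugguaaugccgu
miR-29b-3p in A330023F24Rik, chr1:195037091-195037113: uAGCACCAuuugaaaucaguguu
miR-29c-3p in A330023F24Rik, chr1:195037600-195037621: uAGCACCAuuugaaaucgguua
miR-101a-3p in E130102H24Rik, chr4:101346957-101346977: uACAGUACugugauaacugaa

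The seed AGCAGCA of miR-322-5p, in C430049B03Rik, was also that of miR-16-5p, in Dleu2. In Gm13648 the miR-200b-3p and miR-429-3p seeds were both AAUACUG, and in A330023F24Rik the miR-29b-3p and miR-29c-3p seeds were both AGCACCA.

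All levels below are log2 brightness relative to the 75th percentile of the same array, so a negative level lies below that percentile and 1 unit is 2-fold. Differences are contusion minus control with limma's standard error (SE), and a gene was called when its limma p, adjusted by the Benjamini-Hochberg method over all 89041 tested features, was under 0.05. A gene entered the test with a probe that the scanner software marked well above background on 4 or more arrays. Of the 1060 genes, 703 passed and 357 did not, 258 of these being well above background on 0 arrays. Among those tested, 630 were well above background on all 8 arrays, 2 only on contusion arrays and 3 only on control arrays. Genes marked on the arrays of 1 group only passed the filter through that group. The filter thus favoured their direction, and their p-values are given as a description.

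On each array 72.9% to 75.4% of all probes were well above background. The arrays came on 2 slides: slide 1 held contusion replicate 1 with control replicates 2, 3 and 4, and slide 2 held contusion replicates 2, 3 and 4 with control replicate 1. Among cell type markers measured as mRNAs, 10 of 10 monocyte and macrophage markers were called higher in contusion (mean level per array 4.44 to 4.82 in contusion and -0.84 to 1.81 in control), as were 6 of 6 markers of dividing cells (3.12 to 3.85 in contusion and -0.86 to 1.03 in control). All 10 neuronal markers were called lower (5.40 to 5.68 in contusion and 6.17 to 6.43 in control). Of all mRNAs 25.8% were called higher and 25.4% lower. Markers of endothelium (6 of 7), red blood cells (6 of 7), microglia (5 of 7) and oligodendrocyte precursors (4 of 5) were also called higher, and 0 of these lower. Of 8 astrocyte markers 3 were called higher and 3 lower. In skeletal muscle markers contusion replicates 1 and 2 stood at 3.91 and 2.45, against 0.30 to 0.35 in contusion replicates 3 and 4 and -0.16 to 1.48 in control arrays. In neutrophil markers control replicates 1 and 3 stood at 1.91 and 1.97 and control replicates 2 and 4 at -0.17 and 0.87, while contusion arrays stood at 0.56 to 2.25. The part of these in the results below was not tested. In bulk tissue, fewer cells of a type and less RNA per cell cannot be told apart.

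The contused cord differed from control cord in 304 of the 703 tested noncoding genes (43.2%), of which 132 were higher and 172 lower. Over all features on the array the share called was 38.6%, with 14.7% higher and 23.9% lower. Among mRNAs it was 51.1% (25.8% higher and 25.4% lower), and among the other long noncoding RNAs 28.4% (7.12% higher and 21.3% lower). The median difference of the members was -0.01 and that of all features -0.05. The median SE of a difference was 0.11 for the members, 0.09 for mRNAs and 0.14 for the other long noncoding RNAs.

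Large differences lay more often on the higher side, in the members as in all features. At least 2-fold, 35 of the 703 members were higher and 18 lower, against 2992 (3.36%) and 1314 (1.48%) of all 89041 features. Among 18134 mRNAs 1510 were higher and 321 lower, and among 34568 other long noncoding RNAs 493 were higher and 763 lower. The contusion and control arrays did not overlap for 301 members (42.8%), against 38.7% of all features. Of the 304 called members, 303 had the same sign of difference on both slides, as had 34306 of the 34344 called features of the whole array. These signs come from the same arrays as the calls, so their agreement says little about a slide effect. With the slide as a block, 257 of the 304 were still called. Without contusion replicates 1 and 2, 237 members were called (89 higher and 148 lower), and without control replicates 1 and 3, 288 were (119 higher and 169 lower). Of 166 members with several tested probes, 3 had probes called in opposite directions and are not named further: 1700020N01Rik, 2010204K13Rik and B830017H08Rik.

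The counts by name class stand beside 14.7% called higher and 23.9% called lower over all features. Pseudogene names had 30 members higher (26.8%) and 19 lower of 112 tested, RIKEN clone names 46 higher (14.5%) and 79 lower (24.8%) of 318, and Gm models 10 higher (11.2%) and 23 lower (25.8%) of 89, the shares of RIKEN and Gm names lying near those of all features. Antisense names had 8 higher and 14 lower (29.8%) of 47, and host-gene names 2 higher and 2 lower of 7. Small-RNA names, which here take in ribosomal RNAs, had 6 higher and 0 lower of 10, with the other 4 not called. Noncoding transcripts of protein-coding genes had 17 higher and 17 lower of 63, and the remaining names 13 higher and 18 lower of 57. The difference between classes was not tested.

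**Figure D1:**
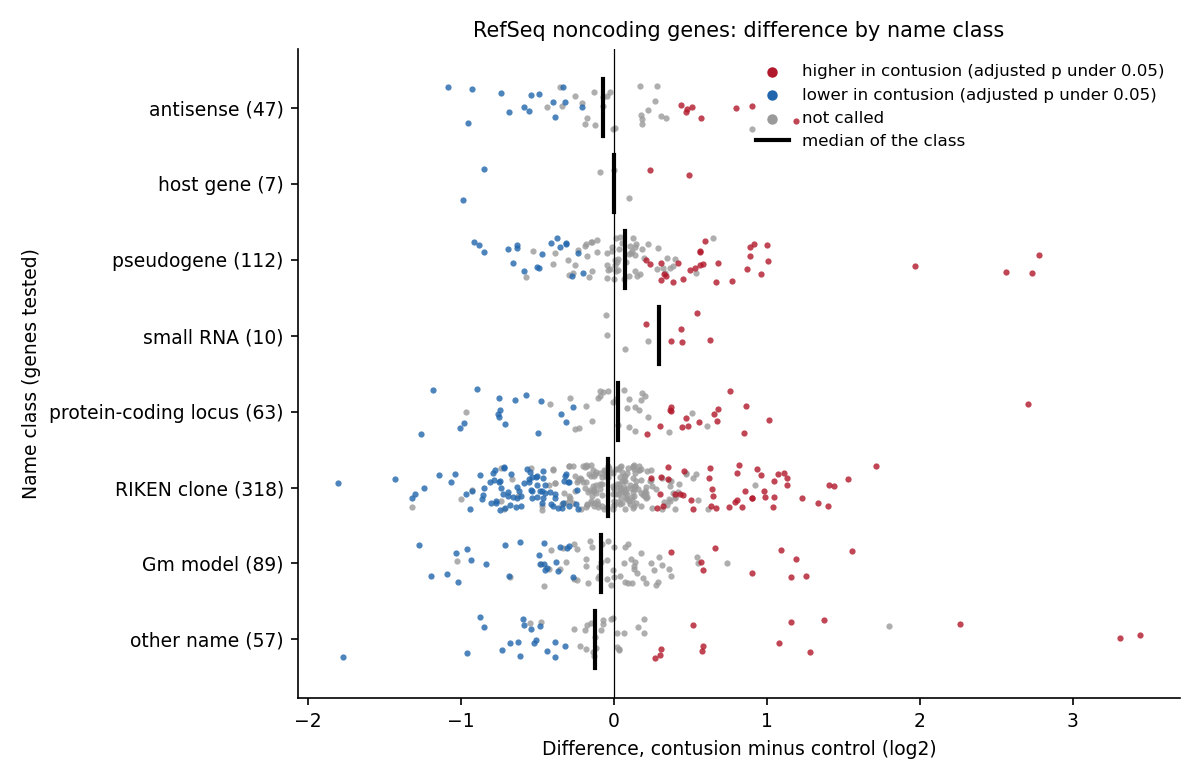
Each point is 1 tested RefSeq noncoding gene, placed by its log2 difference (contusion minus control, horizontal axis) in its name class (rows), with the vertical spread within a row only for legibility. Red points were called higher and blue points lower in contusion, grey points were not called, and black bars are class medians, from -0.12 for other names to 0.30 for small RNAs.

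Among the lists of known noncoding RNAs, that of myeloid and immune RNAs had the highest median. The lists were chosen with earlier results of these data known, so this rank is only a description. Of its 20 symbols 4 were measured (AI662270, Mirt1, Mirt2 and Morrbid). All 4 were called higher, with a median difference of 1.82. Over all features the median was -0.05 and 14.7% were called higher. Morrbid, which in mouse myeloid cells holds down its neighbour Bcl2l11 and so prolongs their life, stood at 1.61, 1.72, 1.79 and 1.75 in contusion replicates 1 to 4, against 0.43, 0.18, 0.44 and 0.32 in control replicates 1 to 4. The groups were far apart and the spread within each was small. Morrbid rose by 1.37 ± 0.08 (SE, n = 4 per group; limma adjusted p = 8.3e-05), 2.59-fold.

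AI662270 stood at -1.80, -1.50, -2.12 and -1.35 in contusion replicates 1 to 4, against -4.61, -5.84, -3.85 and -5.69 in control replicates 1 to 4. It was well above background on 2 of the 4 control arrays, and control replicates 1 and 3 were brighter than control replicates 2 and 4. AI662270 rose by 3.31 ± 0.43 (limma adjusted p = 0.000653). For dim probes the size of a difference depended on the background treatment: with normexp background correction, which adds an offset to every spot, AI662270 differed by 1.04 and Mirt2, described next, by 0.36, both still called, and 46 of the 94 named members had differences smaller by over 1.5 times. Its nearest measured coding gene, Slfn3, lay 8422 bases away and rose by 1.43.

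Mirt2, named for its rise in infarcted mouse heart, stood at -3.47, -3.70, -3.86 and -2.61 in contusion replicates 1 to 4, against -5.43, -6.70, -4.09 and -6.47 in control replicates 1 to 4. It was well above background on 1 of the 4 control arrays, control replicate 3, which at -4.09 lay just under the lowest contusion array at -3.86. Mirt2 rose by 2.26 ± 0.56 (limma adjusted p = 0.0136). Mirt1, named in the same way, stood at -2.17, -2.31, -2.04 and -2.30 in contusion replicates 1 to 4, against -3.10, -4.13, -2.59 and -3.62 in control replicates 1 to 4, and rose by 1.16 ± 0.29 (limma adjusted p = 0.0149). In AI662270, Mirt2 and Mirt1 alike, control replicates 1 and 3 were the brightest controls, and the same 2 arrays led the controls in the monocyte and macrophage markers (1.81 and 1.21, against 0.73 and -0.84 in control replicates 2 and 4). Without contusion replicates 1 and 2, an alternative added after the data were seen, Mirt2 (limma adjusted p = 0.0608) and Mirt1 (limma adjusted p = 0.0753) were no longer called, and Mirt1 was also not called with the slide as a block (limma adjusted p = 0.0541); AI662270 and Morrbid were.

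**Figure D2:**
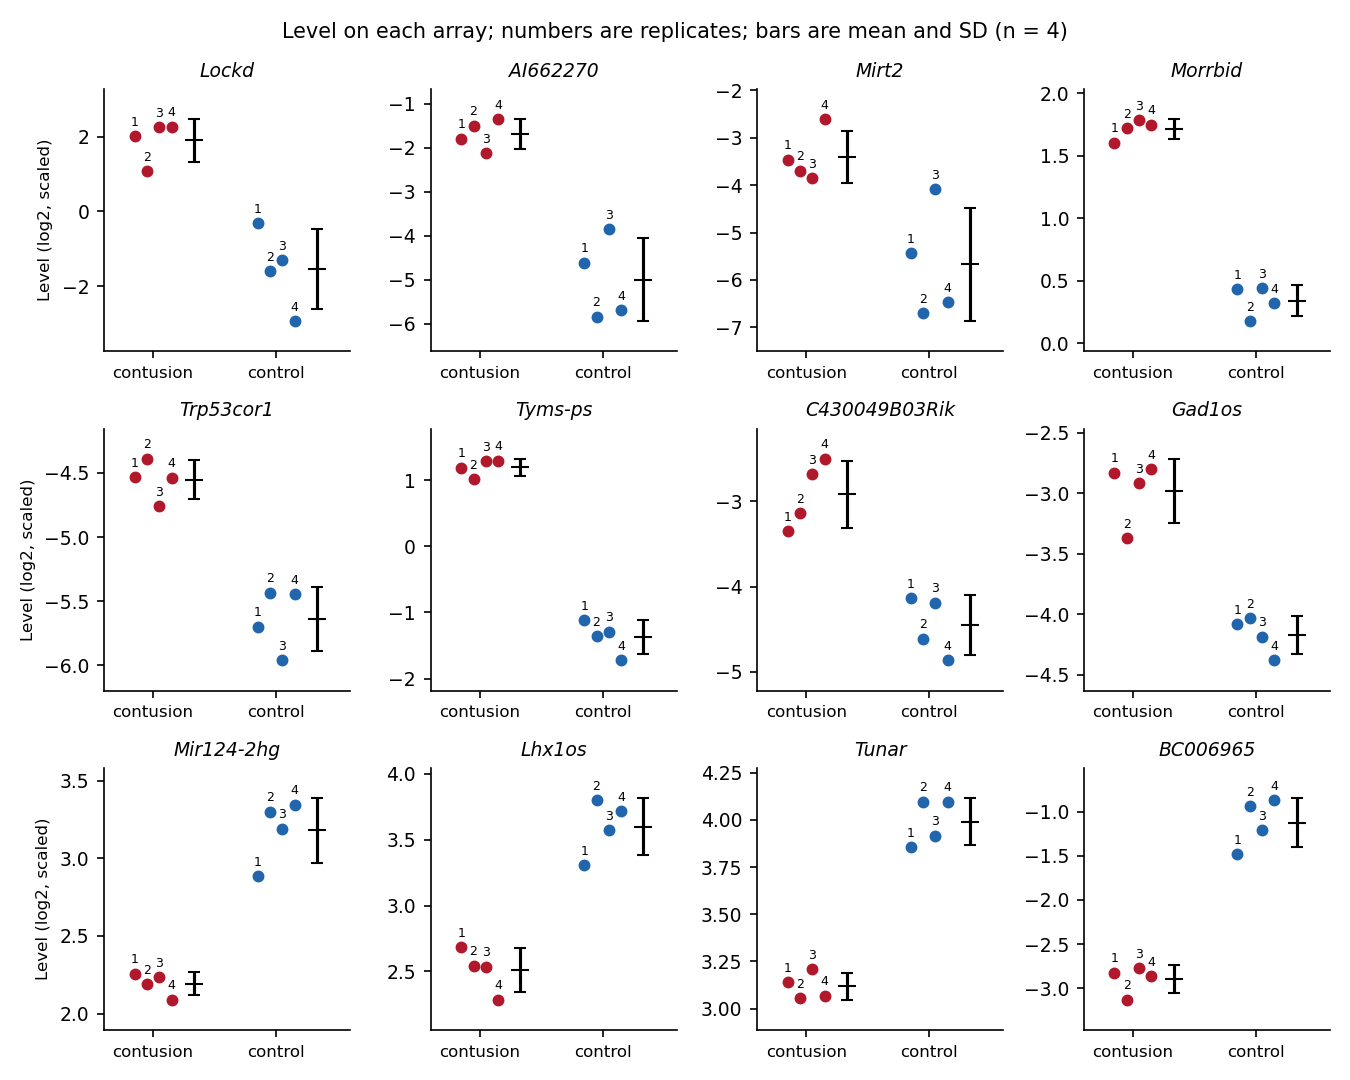
Level of 12 noncoding genes on each array (vertical axis, log2 relative to the array's 75th percentile; each panel has its own range), with contusion in red and control in blue. Small numbers give the replicate and black bars the mean and SD of 4 arrays. In each panel the 4 contusion arrays lie wholly above or wholly below the 4 control arrays.

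The widest difference among the members was that of Lockd. Lockd, a transcript made downstream of the cell-cycle inhibitor gene Cdkn1b, stood at 2.01, 1.07, 2.24 and 2.27 in contusion replicates 1 to 4, against -0.32, -1.61, -1.30 and -2.93 in control replicates 1 to 4. Every contusion array was above every control array, and the controls ran from replicate 1 at the top to replicate 4 at the bottom with replicates 3 and 2 between them. Markers of dividing cells put the controls in the same order, at 1.03, 0.31, -0.15 and -0.86 for control replicates 1, 3, 2 and 4. So did monocyte and macrophage markers, at 1.81, 1.21, 0.73 and -0.84. The part of either in the Lockd difference was not tested. Lockd rose by 3.44 ± 0.52 (limma adjusted p = 0.00132), 10.8-fold. Cdkn1b, 3567 bases from it on the same strand, differed by -0.15 ± 0.07 (limma adjusted p = 0.124).

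Trp53cor1, the p53-induced lincRNA-p21, stood at -4.53, -4.39, -4.76 and -4.54 in contusion replicates 1 to 4, against -5.70, -5.43, -5.96 and -5.45 in control replicates 1 to 4. It was well above background on 4 contusion arrays and on 0 control arrays, so its control level is only an upper bound. The measured means were -4.56 ± 0.15 in contusion and -5.63 ± 0.25 in control (SD, n = 4 each), and Trp53cor1 was at least 1.79-fold higher in contusion (limma adjusted p = 0.000552). With normexp background correction its difference was 0.12 and was not called (limma adjusted p = 0.235). Such folds, on the processed signal, set the mean of the brighter group against, on each dimmer array, the higher of the probe's own signal and the lowest signal well above background there. The p-value beside such a fold is for the measured means and not for the bound. Trp53cor1 passed the filter through its contusion arrays alone. Cdkn1a, the p53 target and cell-cycle inhibitor that lies 11853 bases from it, rose by 1.05 ± 0.08 (limma adjusted p = 0.000112).

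Among the 8 measured RNAs of p53, growth and stress, 3 rose and 2 fell, with a median difference of 0.10. Dleu2, the host of miR-16-5p printed above, rose by 0.52 ± 0.08 (limma adjusted p = 0.0018), and Pvt1, a neighbour of Myc, by 0.31 ± 0.06 (limma adjusted p = 0.0049), while Myc itself differed by 0.08 (limma adjusted p = 0.343). Norad, which sequesters Pumilio proteins, stood at 7.74, 7.85, 7.85 and 7.73 in contusion replicates 1 to 4, against 8.24, 8.51, 8.31 and 8.30 in control replicates 1 to 4, without overlap. It fell by 0.54 on the log2 scale (SE 0.08, limma adjusted p = 0.000949). Firre, an X-linked RNA of nuclear organisation, fell by 0.60 on the log2 scale (limma adjusted p = 0.00474). Tug1 (0.02), Lncpint (-0.12) and Zfas1 (0.18, limma adjusted p = 0.0549) were not called.

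Of 8 measured neural and developmental noncoding RNAs, 4 fell, 1 rose and 3 were not called, with a median difference of -0.22, against -0.05 over all features, of which 23.9% were called lower and 14.7% higher. Tunar, an RNA of neural and pluripotent cells, stood at 3.14, 3.05, 3.21 and 3.07 in contusion replicates 1 to 4, against 3.85, 4.10, 3.92 and 4.10 in control replicates 1 to 4. The groups did not overlap, and Tunar fell by 0.87 on the log2 scale (SE 0.08, limma adjusted p = 0.000183). Pantr1, which lies 943 bases from the neural transcription factor gene Pou3f3, fell by 0.52 on the log2 scale (limma adjusted p = 0.00117), and Pou3f3 fell by 0.31 on the log2 scale (limma adjusted p = 0.0104). Crnde was the member of the list that rose, by 0.30 (limma adjusted p = 0.00884), and it was not called with the mean of probes (0.21, limma adjusted p = 0.0673) or without control replicates 1 and 3 (limma adjusted p = 0.0549). Sox2ot, whose span overlaps Sox2, differed by -0.19 (limma adjusted p = 0.304), whereas Sox2 rose by 0.44 (limma adjusted p = 0.000619). The 4 that fell were Lhx1os, Tunar, Pantr1 and Oip5os1, and neuronal markers fell on the same arrays, with a median difference of -0.73.

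**Figure D3:**
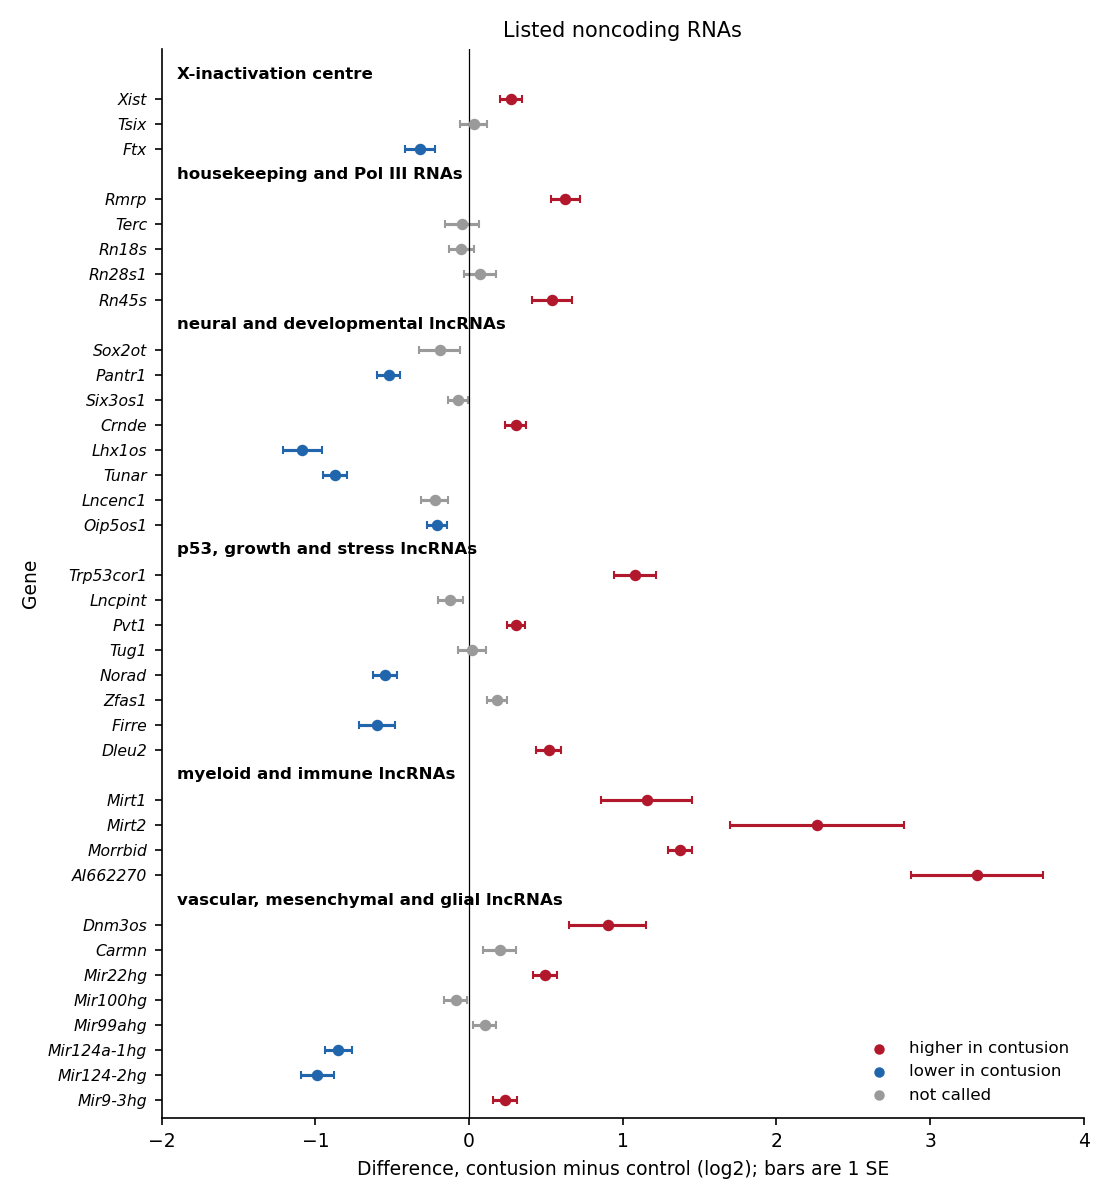
Difference of each measured RNA of 6 lists of known noncoding RNAs (contusion minus control on the log2 scale, horizontal axis; bars are 1 SE). Red points were called higher, blue points lower and grey points were not called; the 4 myeloid and immune RNAs lie between 1.16 and 3.31.

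Host genes of microRNAs moved in both directions. Mir124-2hg, a host gene of miR-124, the microRNA most typical of neurons, stood at 2.26, 2.19, 2.24 and 2.09 in contusion replicates 1 to 4, against 2.88, 3.30, 3.19 and 3.34 in control replicates 1 to 4. No contusion array reached the lowest control, and it fell by 0.99 on the log2 scale (SE 0.11, limma adjusted p = 0.000315). A host gene of the same microRNA on another chromosome, Mir124a-1hg, stood at -1.57, -1.21, -1.43 and -1.37 in contusion replicates 1 to 4, against -0.52, -0.54, -0.64 and -0.48 in control replicates 1 to 4, and fell by 0.85 on the log2 scale (SE 0.09, limma adjusted p = 0.000255). Both miR-124 host genes measured were thus lower. They were also the 2 lower RNAs of the vascular, mesenchymal and glial list, in which they had been placed. Of the 8 measured RNAs of that list 3 were higher, and the median difference was 0.15.

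Mir22hg, the host of miR-22-3p, stood at 1.76, 1.82, 1.69 and 1.83 in contusion replicates 1 to 4, against 1.11, 1.33, 1.33 and 1.36 in control replicates 1 to 4. It rose by 0.49 ± 0.08 (limma adjusted p = 0.00137), with control replicate 1 below the other controls. Mir9-3hg, a host of miR-9, rose by 0.24 ± 0.08 (limma adjusted p = 0.0394), a call that was lost in most of the alternatives tried. The clone-named C130071C03Rik, whose span holds another miR-9 gene, differed by -0.16 (limma adjusted p = 0.196) and was not called. Mir100hg (-0.09), Mir99ahg (0.10) and Mirc35hg (-0.00), the host of miR-182, miR-96 and miR-183, were not called.

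Hosts of microRNAs also stood among clone-named and antisense members. Of the 22 members with a hairpin in or beside their span, 10 were higher, 5 lower and 7 not called. Of all 703 tested members 132 were higher (18.8%) and 172 lower (24.5%), and of all features 14.7% and 23.9%. This search was added after the values were seen. It matched no hairpin to Mir124-2hg and Mir124a-1hg, both lower, or to Mir99ahg, not called, so the 22 leave these host genes out. Where the strand of a member was not known, as for C430049B03Rik, hairpins on either strand were counted. C430049B03Rik, whose span holds miR-322-5p and miR-503-5p, stood at -3.35, -3.14, -2.68 and -2.50 in contusion replicates 1 to 4, against -4.14, -4.61, -4.19 and -4.87 in control replicates 1 to 4. The groups did not overlap, and it rose by 1.53 ± 0.23 (limma adjusted p = 0.00126), or 0.41 with normexp background correction. Dleu2, whose miR-16-5p has the same seed as miR-322-5p, was higher as well, as given above.

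Gm13648, which holds miR-200b-3p and miR-429-3p, microRNAs typical of epithelium, stood at -2.34, -2.18, -1.95 and -1.92 in contusion replicates 1 to 4, against -2.87, -3.38, -3.23 and -3.28 in control replicates 1 to 4, and rose by 1.09 ± 0.14 (limma adjusted p = 0.000538). On the lower side, A330023F24Rik, with the miR-29b-3p and miR-29c-3p genes, fell by 0.38 on the log2 scale (limma adjusted p = 0.0317), with contusion replicate 2 above control replicate 3. E130102H24Rik, with the miR-101a-3p gene, fell by 0.50 on the log2 scale (limma adjusted p = 0.0074). A230057D06Rik and A330076H08Rik, which together span the miR-344 cluster on chromosome 7, fell by 0.45 and 0.50 on the log2 scale.

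Antisense-named genes did not follow their sense mRNAs in a single direction. For 40 of the 47 tested, the mRNA of the gene they are named after was measured, and in 14 of these both were called. Both were higher in 1 pair and both lower in 4, while the antisense gene was higher and the mRNA lower in 4, and the antisense gene lower and the mRNA higher in 5. Across the 40 pairs the differences had a Pearson correlation of -0.10 and a Spearman correlation of -0.12, given as a description, since both values of a pair come from the same arrays.

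Gad1os, opposite the gene of the GABA-making enzyme Gad1, stood at -2.83, -3.37, -2.92 and -2.80 in contusion replicates 1 to 4, against -4.08, -4.03, -4.19 and -4.38 in control replicates 1 to 4. It rose by 1.19 ± 0.14 (limma adjusted p = 0.00044), or 0.32 with normexp background correction. Gad1 mRNA stood at 5.16, 4.93, 5.08 and 4.87 in contusion replicates 1 to 4, against 5.52, 5.87, 5.59 and 5.78 in control replicates 1 to 4, and fell by 0.68 on the log2 scale (SE 0.10, limma adjusted p = 0.00137). The groups did not overlap for either, and the directions were opposite. The span of Gad1os also overlaps Erich2, whose mRNA rose by 1.16.

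Lhx1os, opposite Lhx1, a homeobox gene of spinal interneurons, fell along with its sense gene. It stood at 2.68, 2.55, 2.54 and 2.28 in contusion replicates 1 to 4, against 3.30, 3.80, 3.57 and 3.71 in control replicates 1 to 4, a difference of -1.09 ± 0.13 (limma adjusted p = 0.000425). Lhx1 mRNA differed by -0.85 ± 0.08 (limma adjusted p = 0.000208).

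Dnm3os, the precursor of miR-199a-5p and miR-214-3p printed above, stood at -1.99, -2.11, -2.18 and -1.69 in contusion replicates 1 to 4, against -2.85, -3.30, -2.17 and -3.27 in control replicates 1 to 4. Control replicate 3 reached the lowest contusion array, so the groups overlapped. Dnm3os rose by 0.90 ± 0.25 (limma adjusted p = 0.0212), or 0.40 with normexp background correction, and was not called with the slide as a block (limma adjusted p = 0.0621) or without contusion replicate 4 (0.0584), control replicate 2 (0.0564) or control replicate 4 (0.0581). Its sense gene Dnm3, a dynamin of synapses, fell by 0.75 on the log2 scale (limma adjusted p = 0.00076). Of 6 pericyte and fibroblast markers 2 were called higher, at mean levels of 4.69 to 5.00 in contusion and 3.17 to 4.82 in control, with control replicate 3 the highest control at 4.82; their part in the result was not tested.

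Among the other pairs, Map2k3os and the kinase gene Map2k3 rose by 0.57 ± 0.07 (limma adjusted p = 0.000397) and 0.60 ± 0.12 (limma adjusted p = 0.00591). Dgkeos rose by 0.44 while Dgke, a diacylglycerol kinase gene, fell by 0.80 on the log2 scale. Fam120aos fell by 0.49 on the log2 scale and Fam120a rose by 0.57. Plet1os fell by 0.54 on the log2 scale and Plet1 rose by 0.52. Mccc1os fell by 0.96 on the log2 scale and Mccc1, a subunit of an enzyme of leucine breakdown, rose by 0.26. Oip5os1, also called cyrano, stood at 2.00, 2.04, 2.01 and 1.95 in contusion replicates 1 to 4, against 2.09, 2.23, 2.23 and 2.30 in control replicates 1 to 4, and its fall of 0.21 (difference -0.21 ± 0.07, limma adjusted p = 0.0345) was lost in most alternatives, whereas Oip5, a centromere gene, rose by 2.54 ± 0.17 (limma adjusted p = 9.36e-05).

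**Figure D4:**
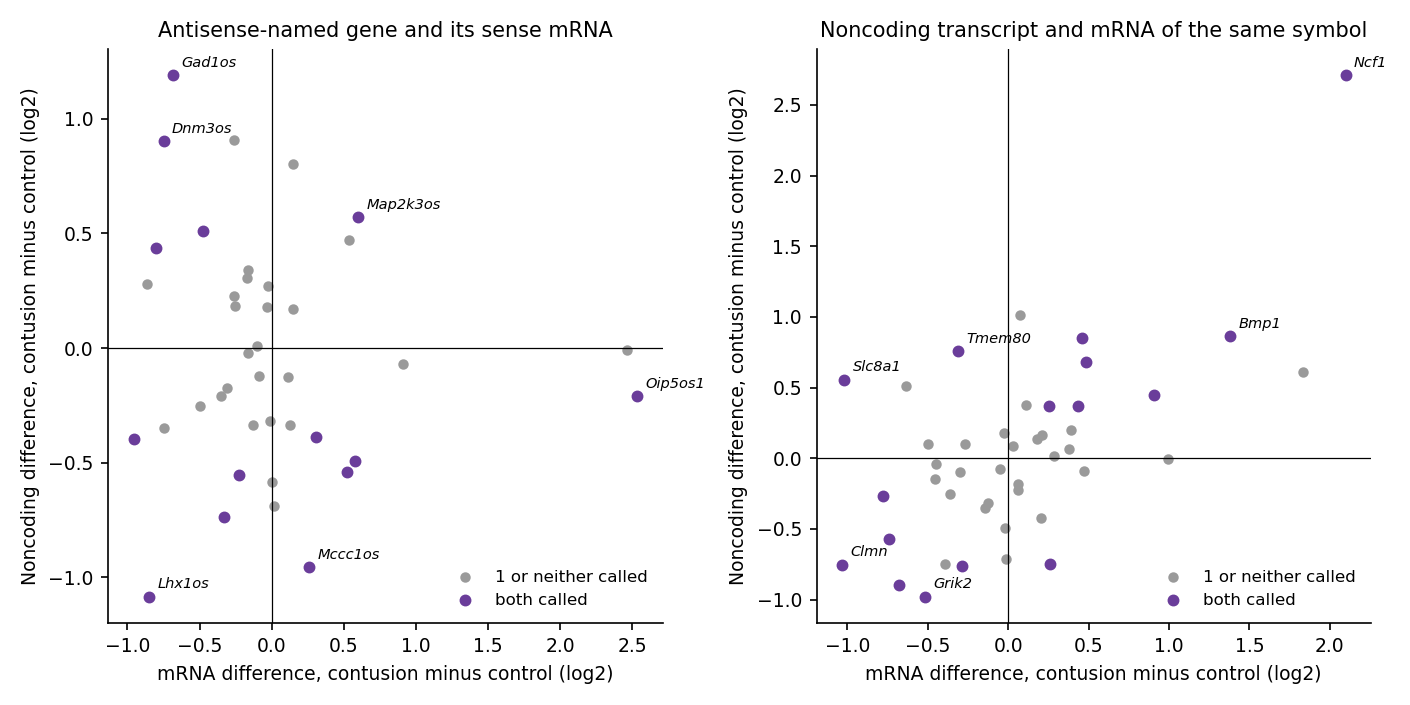
Difference of the noncoding transcript (vertical axis) against that of its mRNA (horizontal axis), both contusion minus control on the log2 scale, for 40 antisense-named genes and their sense mRNA (left) and 44 noncoding transcripts and the mRNA of the same symbol (right). Purple points have both called and grey points 1 or neither; the left points fall on both sides of 0 on both axes (Pearson correlation -0.10), and the right points lie mostly along the diagonal (0.62).

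Noncoding transcripts of protein-coding genes moved more often with the mRNA of the same symbol. Of 44 with a measured mRNA, both were called in 16: both higher in 7, both lower in 6, the noncoding transcript higher and the mRNA lower in 2, and the reverse in 1. The Pearson correlation across the 44 was 0.62 and the Spearman correlation 0.51, again as a description over pairs from the same arrays. The files do not show whether the 2 probes of a pair lie in exons that both transcripts share.

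The noncoding transcript of Ncf1, a subunit of the phagocyte NADPH oxidase, stood at -3.99, -4.36, -3.89 and -3.74 in contusion replicates 1 to 4, against -6.57, -6.22, -7.42 and -6.62 in control replicates 1 to 4. It was well above background on 4 contusion arrays and 0 control arrays, so it passed the filter through contusion alone and its p-value is a description. The measured means were -4.00 ± 0.26 in contusion and -6.71 ± 0.51 in control (SD, n = 4 each), and it was at least 2.77-fold higher in contusion (limma adjusted p = 0.000189). The Ncf1 mRNA rose by 2.10 ± 0.34 (limma adjusted p = 0.00175).

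The 3 opposed pairs were Tmem80, Slc8a1 and Bcor. The noncoding Tmem80 transcript stood at 2.27, 2.17, 2.23 and 2.19 in contusion replicates 1 to 4, against 1.44, 1.52, 1.47 and 1.40 in control replicates 1 to 4. It rose by 0.76 ± 0.06 (limma adjusted p = 0.000132), while the Tmem80 mRNA fell by 0.31 on the log2 scale (limma adjusted p = 0.0264). The noncoding transcript of Slc8a1, the sodium-calcium exchanger gene, rose by 0.56 ± 0.16 (limma adjusted p = 0.0221), with contusion replicate 1 at -1.01 below control replicate 1 at -0.92, and the Slc8a1 mRNA fell by 1.02 on the log2 scale. The noncoding transcript of Bcor, a corepressor gene, fell by 0.75 on the log2 scale and its mRNA rose by 0.26.

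Among pairs that moved together, the noncoding transcript of Bmp1, a procollagen protease gene, rose by 0.86 ± 0.09 (limma adjusted p = 0.000318) and its mRNA by 1.38. That of Nfe2l2, which encodes the oxidative stress factor Nrf2, rose by 0.45 and its mRNA by 0.91. The noncoding transcripts of Grik2, a kainate receptor gene, and Adarb2 fell by 0.98 and 0.90 on the log2 scale, and their mRNAs by 0.52 and 0.68.

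Pseudogenes had their widest differences on the higher side: 6 of 112 were higher at least 2-fold and 0 lower. Over all features 3.36% were higher and 1.48% lower at least 2-fold. The 26.8% of pseudogenes called higher lay near the 25.8% of mRNAs. Whether pseudogene probes also read RNA of the genes they copy was not tested. 5730416F02Rik stood at 1.69, 1.69, 1.65 and 1.81 in contusion replicates 1 to 4, against -0.52, -1.40, -0.41 and -1.95 in control replicates 1 to 4. All controls lay below all contusion arrays, and it rose by 2.78 ± 0.32 (limma adjusted p = 0.0004). 2700099C18Rik rose by 2.73 ± 0.23 (limma adjusted p = 0.000149), or 1.25 with normexp background correction.

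Tyms-ps, a copy of the gene of thymidylate synthase, which makes a DNA precursor, stood at 1.19, 1.01, 1.28 and 1.29 in contusion replicates 1 to 4, against -1.12, -1.36, -1.29 and -1.73 in control replicates 1 to 4. The groups were far apart. Tyms-ps rose by 2.57 ± 0.13 (limma adjusted p = 8.2e-05) and Tyms by 2.46 ± 0.18 (limma adjusted p = 0.000112). How much of the Tyms-ps signal comes from Tyms RNA was not tested, since the probe may match both.

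A parent gene named in the pseudogene's symbol was measured for 14 pseudogenes, a comparison added after the values were seen. Both were called higher for Tyms-ps, Hmga2-ps1 (0.89, Hmga2 2.04), Rps15a-ps4 (0.89, Rps15a 0.71) and Ptma-ps2 (0.34, Ptma 0.23), and both lower for Mageb16-ps1 (-0.63, Mageb16 -0.65). Kif4-ps (0.65) and Spn-ps (-0.16) were not called, although the mitotic kinesin gene Kif4 rose by 2.73 and the leukocyte sialophorin gene Spn by 1.83. Fut4-ps1 (-0.04), Gpx2-ps1 (-0.57) and Morf4l1-ps1 (0.14) were not called either, although Fut4 (0.57), Gpx2 (-0.24) and Morf4l1 (-0.26) were. In the remaining pairs neither was called. The lower pseudogenes differed less, from AI854703 at -0.92, A930017M01Rik at -0.88 and B630019K06Rik at -0.85 upward.

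Members of the small-RNA class were called only on the higher side among the 10 measured. By its naming rule this class also holds the ribosomal RNAs Rn45s, Rn18s and Rn28s1, which are not small. Rmrp, the RNA of RNase MRP, which cuts ribosomal RNA precursors, stood at 5.40, 5.50, 5.60 and 5.66 in contusion replicates 1 to 4, against 4.76, 4.88, 5.12 and 4.92 in control replicates 1 to 4, and rose by 0.63 ± 0.10 (limma adjusted p = 0.00131). The ribosomal RNA precursor Rn45s stood at 6.17, 6.51, 6.37 and 6.68 in contusion replicates 1 to 4, against 6.15, 5.81, 5.82 and 5.80 in control replicates 1 to 4, with control replicate 1 just below contusion replicate 1. It rose by 0.54 ± 0.13 (limma adjusted p = 0.0111), whereas mature Rn18s (-0.05, limma adjusted p = 0.667) and Rn28s1 (0.07, limma adjusted p = 0.627) and the telomerase RNA Terc (-0.05, limma adjusted p = 0.775) were not called.

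The other called members of the small-RNA class were Snora52 (0.45), Snora69 (0.44), Snord33 (0.37) and Snora3 (0.21), guides of ribosomal RNA modification. Snora52 overlaps Rplp2 and Snora69 overlaps Rpl39, ribosomal protein genes whose mRNAs rose by 0.48 and 0.64, and whether their probes also read unspliced RNA of those genes was not tested. The Snora3 call was lost in most alternatives, and that of Snora52 without contusion replicates 1 and 2 (limma adjusted p = 0.0635).

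Of 5 measured RNAs of a housekeeping list, which Rmrp, Rn45s, Rn18s, Rn28s1 and Terc make up, 2 rose and 0 fell, with a median difference of 0.07. RNAs of the X-inactivation centre, with 3 measured, had 1 higher and 1 lower. Xist, which coats the inactive X, rose by 0.27 ± 0.07 (limma adjusted p = 0.0175), with 5.13 to 5.18 in contusion and 4.71 to 4.95 in control, and was not called with normexp background correction (limma adjusted p = 0.131), without contusion replicates 1 and 2 (limma adjusted p = 0.0838) or without control replicates 1 and 3 (limma adjusted p = 0.0533). Ftx, a neighbour of Xist, fell by 0.32 on the log2 scale (limma adjusted p = 0.0292), a call lost in most alternatives, and Tsix differed by 0.03 (limma adjusted p = 0.814).

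Of the clone-named members, 6330407A03Rik overlaps the myeloid kinase gene Lyn. It stood at 0.43, 0.38, 0.35 and 0.61 in contusion replicates 1 to 4, against -0.64, -1.04, -0.74 and -1.43 in control replicates 1 to 4, without overlap. It rose by 1.41 ± 0.17 (limma adjusted p = 0.000449) and Lyn by 1.80 ± 0.24 (limma adjusted p = 0.000742). 1810034E14Rik rose by 1.72 ± 0.28 (limma adjusted p = 0.00198), well above background on 1 of the 4 control arrays, and A430093F15Rik, 1921 bases from the lymphocyte gene Cd5, by 1.44 ± 0.31 (limma adjusted p = 0.00691). Among Gm models the largest rise was that of Gm19705, 1.56 ± 0.14 (limma adjusted p = 0.000187).

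A further 3 clone-named members were chosen after their values were seen, for their narrow spread. 1110038B12Rik, 3958 bases from the heat shock gene Hspa1b, stood at 3.92, 3.92, 3.95 and 3.94 in contusion replicates 1 to 4, against 3.02, 2.90, 2.98 and 2.87 in control replicates 1 to 4, and rose by 0.99 ± 0.06 (limma adjusted p = 8.3e-05). A530058N18Rik, which overlaps the neuronal gap junction gene Gjd2 on the other strand, stood at 0.09, 0.07, 0.04 and -0.03 in contusion replicates 1 to 4, against 0.90, 1.05, 0.93 and 1.17 in control replicates 1 to 4, and fell by 0.97 on the log2 scale, while Gjd2 fell by 1.24. D430020J02Rik, 190 bases from the condensin gene Ncapg2, rose by 1.11 ± 0.09, and Ncapg2 by 1.59.

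BC006965 had the widest fall among members with other names. It stood at -2.82, -3.13, -2.77 and -2.86 in contusion replicates 1 to 4, against -1.48, -0.94, -1.21 and -0.87 in control replicates 1 to 4. It fell by 1.77 on the log2 scale (SE 0.15, limma adjusted p = 0.000147), or 0.84 (difference -0.84) with normexp background correction, while its nearest measured coding gene Sox9, a glial transcription factor gene 70854 bases away, rose by 0.53 ± 0.07 (limma adjusted p = 0.000582). Particl, which overlaps Mat2a on the other strand, fell by 0.73 on the log2 scale, and Mat2a, which makes the methyl donor of the cell, rose by 0.21.

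C130080G10Rik had the widest fall of all, -1.80 ± 0.24 (limma adjusted p = 0.000724), well above background on 1 of the 4 contusion arrays, and its value was -0.30 with normexp background correction. Actc1, the cardiac actin gene 1521 bases from it, rose by 0.90. Gm29443 was well above background on 0 contusion arrays and 4 control arrays, so it passed the filter through control alone and its p-value is a description. Its measured means were -5.09 ± 0.16 in contusion and -3.82 ± 0.23 in control (SD, n = 4 each), and it was at least 2.42-fold lower in contusion (limma adjusted p = 0.000251).

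The other members with the widest called differences in their class were these. Among antisense names, Kcnmb4os1 (0.80), Appbp2os (0.51) and Smim27 (0.48) were higher, and Rnf227 (-0.93), Copg2os2 (-0.74) and Ctcflos (-0.69) lower. Smim27 and Rnf227 were placed there by the full name in the array description and not by their symbols, and RefSeq types Smim27 as protein-coding. Kcnmb4os1 differed by 1.25 on slide 1 and 0.17 on slide 2, and was not called with normexp background correction (0.15, limma adjusted p = 0.116), with the slide as a block (limma adjusted p = 0.0550) or without contusion replicates 1 and 2 (limma adjusted p = 0.0883). Ctcflos was not called with normexp background correction (-0.13, limma adjusted p = 0.156). Among pseudogenes, Gm8579 (1.97 ± 0.37, well above background on 3 of the 4 control arrays) and 1700049L16Rik (1.01) were higher, and Sprr2g (-0.69) and Gm3002 (-0.66) lower. Noncoding transcripts of Adamtsl5 (1.02) and Cep41 (0.85) were higher, and those of A730046J19Rik (-1.26), 1700065D16Rik (-1.19) and Smim10l2a (-1.01) lower. 1700065D16Rik was not called with normexp background correction (-0.17, limma adjusted p = 0.112) or with the slide as a block (limma adjusted p = 0.0714).

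Among RIKEN clone names, A930003O13Rik (1.40) was higher, and 1500026H17Rik (-1.43), 5730403I07Rik (-1.32), 4930465K10Rik (-1.30) and 4831407H17Rik (-1.14) lower. The difference of 1500026H17Rik rests on 3 contusion values, with 1 contusion array well above background. It was not called from the authors' deposited table (-0.44, limma adjusted p = 0.738) or with normexp background correction (-0.16, limma adjusted p = 0.0702). Among Gm models, Gm19522 (1.25), Gm4890 (1.15) and Gm5086 (0.90) were higher, and Gm12992 (-1.20), Gm15631 (-1.09), Gm13446 (-1.03) and Gm7056 (-1.02) lower. Gm5086 was not called with the slide as a block (limma adjusted p = 0.0762), without contusion replicate 1, 3 or 4 (limma adjusted p = 0.0575, 0.0588 and 0.0505) or without contusion replicates 1 and 2 (limma adjusted p = 0.101), and its control replicate 4, at -2.18, stood apart from the other controls. Gm7056 was not called with normexp background correction (-0.15, limma adjusted p = 0.0998) or without control replicates 1 and 3 (limma adjusted p = 0.0520). Among other names, BC064078 (1.28 ± 0.09, limma adjusted p = 0.000114) was higher, with 0.86 to 1.04 in contusion and -0.57 to -0.17 in control, and Carlr (-0.96) and Redrum (-0.85) were lower.

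Noncoding genes and their nearest measured coding gene, a comparison added after the values were seen, moved the same way more often than not. Leaving out noncoding transcripts of protein-coding genes, 634 members had such a neighbour, both were called in 164, and 115 of these (70.1%) had the same direction. The share was 63.2% of 68 overlapping pairs, 70.0% of 40 pairs at 1 to 5000 bases, 78.6% of 28 at 5001 to 50000 bases and 78.6% of 28 beyond that. Pearson correlations of the differences were 0.23, 0.24, 0.26 and 0.25 in the same order, a description over genes that share arrays and cell makeup. Among the 37 overlapping pairs on opposite strands with both called, 22 (59.5%) had the same direction. Morrbid and Bcl2l11, 136116 bases apart, both rose, by 1.37 and 0.50.

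**Figure D5:**
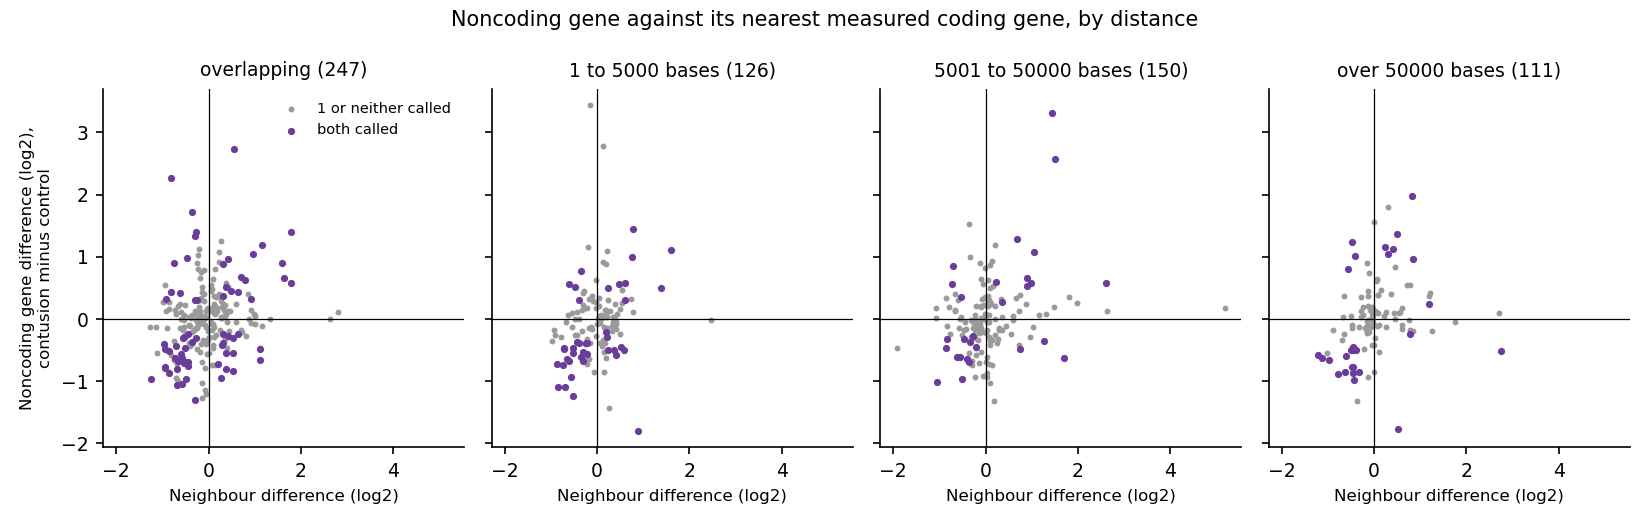
Difference of each noncoding gene (vertical axis) against that of its nearest measured coding gene (horizontal axis), contusion minus control on the log2 scale, in 4 panels by the distance between them. Purple points have both called and grey points 1 or neither; the clouds look alike from panel to panel, with Pearson correlations of 0.23 to 0.26.

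Promoters were searched for short motifs chosen after the values were seen, as a description only. The promoter of Morrbid, from RefSeq (GRCm38.p6, chr2:128429302-128429601, minus strand), is shown because it holds matches to both motifs discussed next, marked in capitals in their order, PU.1 (GAGGAAGT) and AP-1 (TGANTCA).
Morrbid promoter: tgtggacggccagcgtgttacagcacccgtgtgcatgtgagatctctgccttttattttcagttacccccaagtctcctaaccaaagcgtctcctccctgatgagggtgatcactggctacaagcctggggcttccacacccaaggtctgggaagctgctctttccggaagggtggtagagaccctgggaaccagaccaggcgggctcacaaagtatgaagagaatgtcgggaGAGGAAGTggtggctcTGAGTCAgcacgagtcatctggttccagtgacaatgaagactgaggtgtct

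PU.1 is a transcription factor of myeloid cells, and AP-1 a factor of stress and growth signals. On either strand, GAGGAAGT was in 9 (10.5%) of the 86 promoters of members called higher and 1 (0.735%) of the 136 called lower. It was in 9 (3.00%) of the 300 not called and 3.20% of all 32851 promoters of the same length. The 86 promoters belonged to 77 genes and the 136 to 119, so some genes were counted more than once. Its first 7 letters alone, GAGGAAG, were in 14.0% of those called higher, 7.35% of those called lower, 16.3% of those not called and 13.6% of all promoters. The excess of members called higher over all promoters was thus present only for the longer motif. TGANTCA was in 12.8% of promoters called higher, 4.41% of those called lower, 6.33% of those not called and 7.81% of all promoters.

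Other motifs were counted in the same way, and those of E2F and NF-kappa-B rest on 1 promoter in each called set. The CAAT box (CCAAT) was in 38.4% of promoters called higher, 41.2% of those called lower and 37.4% of all. The CRE motif (TGACGTCA) was in 2.33%, 2.21% and 1.79%, the E2F motif (TTTGGCGC) in 1.16%, 0.735% and 0.514%, and the NF-kappa-B motif in 1.16%, 0.735% and 1.63% of the same sets in the same order.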

How the data were processed

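Levels came from the scanner files of 8 Agilent 1-colour arrays, 1 per mouse. Per the submitters' processing notes, Agilent Feature Extraction 10.7 and limma were used. Per the file headers, the deposited intensity is the background-subtracted processed signal, and the deposited flags for probes well above background and for outlier spots are set by that software. The authors' table holds log2 values, set beside the scanner intensity and used as an alternative only. Total RNA was labelled with a whole-transcript kit, per the labels.

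Each intensity was divided by its array's 75th percentile over non-control probes (203 to 252) and taken to log2. Outlier spots were left out and 0 spots were saturated. A probe was kept if it carried the above-background flag on 4 or more arrays, and the brightest stood for its gene. limma 3.58.1 (R 4.3.3) was fitted by group with empirical Bayes over 89041 features, and p-values were adjusted by the Benjamini-Hochberg method. 1500026H17Rik and 9430037G07Rik lost 1 contusion value each. Precision is limited by having 4 arrays per group. The scripts were tested on simulated data.

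Of 1123 RefSeq accessions, 1090 were named through the RefSeq table of GRCm38.p6, 31 by the array file only, and 2 without a symbol were left out. Named members were up to 5 per name class and direction with the largest called difference, with groups that do not overlap, plus listed known RNAs and the partners of pairs. The microRNA hosts, opposed pairs and parent-named pseudogenes outside this rule, and Nfe2l2, Dgkeos, Fam120aos, Plet1os and Snord33, were chosen after their values were seen. Members and lists were chosen with earlier results of these data known. Same-numbered contusion and control samples did not deviate together (correlations -0.30 to -0.0002), so numbers were not taken as pairs.

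Alternatives were normexp background correction, quantile normalization, the authors' table, no filter, a filter on all arrays, the mean of probes, slide and replicate blocks, each array left out, and 2 pairs of arrays left out that were chosen after the data were seen.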

Additional observations from a re-analysis of the deposited data

Results flagged for a closer look

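Among 94 named members, 188 groups of 4 arrays were looked at for 1 array far from the others, as a gap to its nearest neighbour divided by the group's range. In 11 groups 1 array stood apart, where chance alone gives about 1 in 20. Control replicate 1 was that array in 4 of the 11.

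In Mir22hg control replicate 1 was low, at 1.11 against 1.33 to 1.36 in the other controls (ratio 0.894). In Grik2 control replicate 1 was low (0.966), in Xist control replicate 1 was low (0.895), and in Rn45s control replicate 1 was high, at 6.15 against 5.80 to 5.82 (0.926). In Snora69 control replicate 3 was high (0.860), and in Gm5086 control replicate 4 was low, at -2.18 (0.915).

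In 2700099C18Rik contusion replicate 2 was low, at -1.59 against -0.83 to -0.67 in the other contusion arrays (0.831). In Mir99ahg contusion replicate 2 was low (0.885), in A430093F15Rik contusion replicate 3 was high (0.843), in Particl contusion replicate 4 was low (0.926), and in Rn18s contusion replicate 1 was low (0.903).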

How the results depend on the processing

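The count of 304 called noncoding genes was 265 with normexp background correction, 301 with quantile normalization, 301 from the authors' table, 290 with no filter, 291 with a filter on all arrays, 301 with the mean of probes and 278 with the slide as a block. It ranged over 265 to 315 when each array was left out in turn, and was 237 without contusion replicates 1 and 2 and 288 without control replicates 1 and 3. The ranges with each array left out were 116 to 133 for genes called higher, 146 to 182 for genes called lower, 19 to 25 for antisense names, 3 to 4 for host-gene names and 39 to 50 for pseudogenes. With the replicate block 260 were called, but the replicate numbers showed no pairing. Of the 304, 248 were called in both fits with normexp, 256 with the replicate block, 257 with the slide block and 224 without contusion replicates 1 and 2. Named calls lost under an alternative came to 9 with normexp (Trp53cor1, adjusted p = 0.235, among them), 9 with the slide block (Mirt1 and Dnm3os among them), 7 with the replicate block and 11 without contusion replicates 1 and 2. Leaving out 1 array lost calls of Mir9-3hg, Snora3, Gm5086, Ftx, Oip5os1 and Dnm3os only, and gained Zfas1 without control replicate 1 and Lncenc1 without control replicate 3. Under normexp the difference of 46 of the 94 named members was smaller by over 1.5 times. That of 1500026H17Rik, -1.43, was -0.44 in the authors' table. Differences of dim probes are least certain in size, and 357 of the 1060 genes could not be tested at this signal over background.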
